A study of Bos taurus with 7 samples.

Results

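The messenger RNAs of 3 antioxidant enzymes, SOD1, SOD2 and CAT, were followed in bovine blastocysts whose oocytes had matured with or without an inhibitor of energy metabolism. The genes were chosen by name, as 3 of the 27607 Ensembl gene IDs in the count table: SOD1 is ENSBTAG00000018854, SOD2 is ENSBTAG00000006523 and CAT is ENSBTAG00000020980. These pairs of symbol and ID came with the choice of genes, and the deposited table holds IDs only. All 3 genes had counts in each of the 7 libraries and passed the filter on low counts, as did 15134 genes in all.

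Each library was made from embryos at the blastocyst stage, a hollow ball of trophectoderm, the future placenta, around an inner cell mass. The control group had 2 libraries, from oocytes matured without inhibitor. The etomoxir group had 3, from oocytes matured with etomoxir, an inhibitor of the carnitine palmitoyltransferase that lets long-chain fatty acids into mitochondria. The IO+DHEA group had 2, from oocytes matured with a pair of agents meant to inhibit glucose metabolism. DHEA usually denotes dehydroepiandrosterone, an inhibitor of glucose-6-phosphate dehydrogenase, and the labels do not spell out IO. The agents were present during oocyte maturation, and the RNA was taken later, from the embryos. The labels give neither the number of embryos per library nor the origin of the replicates, and the p-values therefore measure a spread between samples that may be technical.

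Superoxide, a by-product of respiration, is turned into hydrogen peroxide by the superoxide dismutases: SOD1, a copper-zinc enzyme, works mainly in the cytosol, and SOD2, a manganese enzyme, in the mitochondrial matrix. Hydrogen peroxide is then split into water and oxygen by catalase (CAT), mostly in peroxisomes, or reduced by peroxidases that draw on glutathione and thioredoxin. Those peroxidases depend on NADPH, and the pentose phosphate pathway, which begins at glucose-6-phosphate dehydrogenase, is a main source of it. Embryos in culture can be exposed to oxygen above the level of the oviduct, and these transcripts are often measured in them for that reason. The data bear on whether a block of glucose or fatty acid use in the oocyte is followed by a difference in these transcripts in the blastocyst.

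Total counts ran from 84739741 to 122061453 per library, and the 3 genes had between 11542 and 167269 counts each, so counting error was small beside the differences between libraries, although reads lacking molecular identifiers cannot be counted as separate molecules. Levels are given as CPM, the counts per 1000000 of a library's total after TMM scaling, which adjusts that total by the bulk of its genes. A CPM value is not corrected for transcript length, so the level of 1 gene is compared between groups and not with the level of another gene. IO+DHEA library 1 stood apart from the rest, with 12990 genes detected against 15056 to 15898 elsewhere and a TMM factor of 0.840 against 0.982 to 1.09. For the 2994 genes that averaged 50 CPM or more, the median absolute log2 difference between replicates was 0.51 for the IO+DHEA pair, 0.21 for the control pair and 0.16 to 0.21 for pairs of etomoxir libraries.

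SOD1 was highest in IO+DHEA, intermediate in etomoxir and lowest in control. The 2 control libraries held 626 and 642 CPM. In etomoxir libraries 1, 2 and 3 SOD1 was at 858, 777 and 878 CPM. The IO+DHEA libraries held 1601 and 1458 CPM. The 3 groups did not overlap: each etomoxir library lay above both controls, and both IO+DHEA libraries lay above every other library. How many genes show this order of groups was not counted. Pair by pair, etomoxir lay wholly above control for 13.2% of genes tested, and IO+DHEA wholly above control for 21.2%. IO+DHEA lay wholly above etomoxir for 18.3%. Control averaged 634 ± 10.8 CPM (SD, n = 2), etomoxir 838 ± 53.3 CPM (SD, n = 3) and IO+DHEA 1529 ± 101 CPM (SD, n = 2). In RNA from whole embryos, a change in the share of cells of a type and a change in RNA per cell cannot be told apart.

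**Figure D1:**
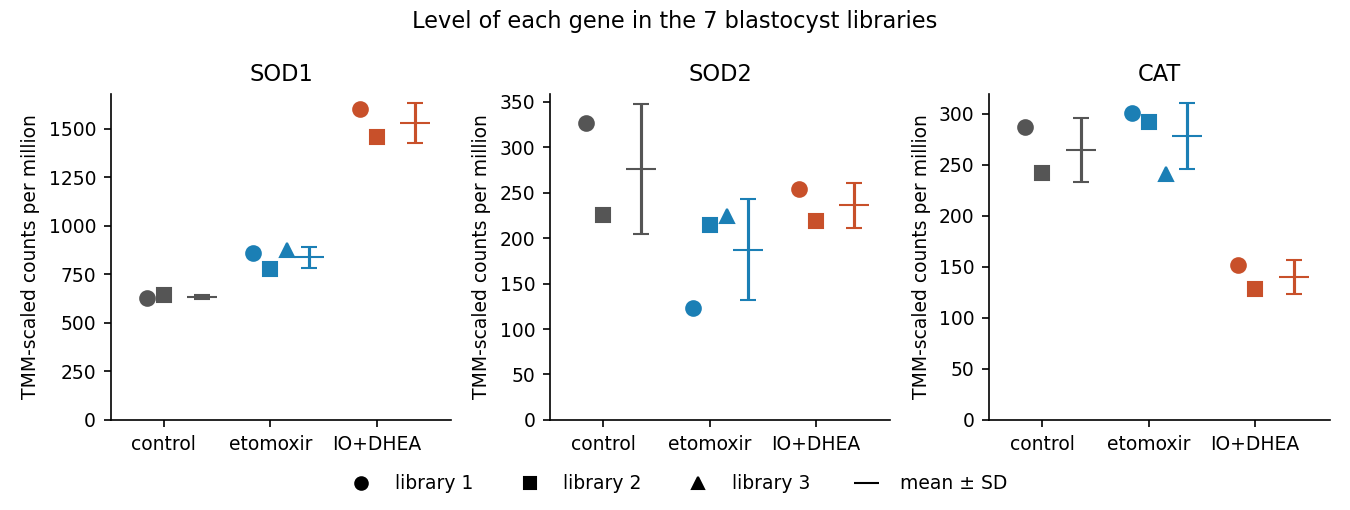
TMM-scaled CPM (vertical axes, starting at 0) of SOD1, SOD2 and CAT in each library of the control, etomoxir and IO+DHEA groups; symbols mark library numbers, and the bars show the group mean with its SD. SOD1 is at 1458 and 1601 in IO+DHEA against 626 to 878 elsewhere, CAT at 128 and 151 against 241 to 301, and SOD2 overlaps between IO+DHEA and the other groups.

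The rise of SOD1 in IO+DHEA over control was 2.41-fold, a log2 fold change of 1.27 ± 0.19 (SE) with a 95% interval of 0.82 to 1.72. The edgeR quasi-likelihood test gave a Benjamini-Hochberg adjusted p of 0.0176 over all genes tested, and SOD1 was higher in 2 of 2 IO+DHEA libraries than in either control. Over the 4 pairs of 1 IO+DHEA and 1 control library the ratio ran from 2.27 to 2.56. In this comparison edgeR called 6.94% of all genes tested at an adjusted p under 0.05, 2.13% higher and 4.8% lower in IO+DHEA. With upper quartile factors the split was 588 genes higher and 514 lower, against 323 and 727 with TMM. At a mean of 50 CPM or more, edgeR called 7.01% of genes higher and 11.1% lower, and 5.01% had a higher log2 fold change than SOD1. Groups that did not overlap were found for 21.2% of all genes tested with IO+DHEA higher and for 28.4% with IO+DHEA lower. On the library totals without TMM factors SOD1 was at 1344.5 and 1587 CPM in IO+DHEA libraries 1 and 2, and at 628 and 630 CPM in the controls.

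The size of the SOD1 rise was much the same in every setting run, with log2 fold changes of 1.20 to 1.48, while its call depended on how the spread was estimated. Leaving out control library 1 gave an edgeR adjusted p of 0.0946, leaving out control library 2 gave 0.125, and leaving out etomoxir library 3 gave 0.0655. It was 0.178 in a fit of the 2 groups alone and 0.143 with the replicate number as a block. Without IO+DHEA library 1, the library with the fewest genes detected, the log2 fold change was 1.23. That fit leaves 1 IO+DHEA library, assumed to vary like the control and etomoxir libraries, so its adjusted p is not read as support.

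SOD1 was also higher in IO+DHEA than in etomoxir. Etomoxir was lower by a factor of 1.83, with a log2 fold change of etomoxir over IO+DHEA of -0.87 ± 0.17 (SE), a 95% interval of -1.26 to -0.47 and an edgeR adjusted p of 0.0229. All 3 etomoxir libraries lay below both IO+DHEA libraries, which held for 18.3% of genes tested, with 26.1% the other way round. In this comparison edgeR called 11.7% of genes, 7.37% higher and 4.32% lower in etomoxir, and at a mean of 50 CPM or more 15.4% higher and 13.9% lower. That comparison shares its IO+DHEA libraries with the comparison against control, so they are not independent. The adjusted p was 0.0501 when control library 1 was left out, 0.0671, 0.0851 and 0.0955 when etomoxir library 1, 2 or 3 was, and 0.186 with the replicate block.

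Etomoxir against control gave a smaller difference in SOD1 that did not pass the test. The etomoxir mean was 1.32-fold the control mean, a log2 fold change of 0.40 ± 0.17 (SE), with a 95% interval of 0.998-fold to 1.75-fold. The edgeR p was 0.0516 before adjustment and 1 after it. Each of the 6 pairs of 1 etomoxir and 1 control library had the etomoxir value higher, by a ratio of 1.21 to 1.40. Groups that did not overlap, with etomoxir higher, were found for 13.2% of all genes tested. Across all genes edgeR called 1 gene here, 0.00661% of those tested and none of the 3, and 514 had an unadjusted p under 0.05. Over the 18 other settings the log2 fold change of SOD1 stayed between 0.36 and 0.46, and the lowest adjusted p was 0.415, in a fit of these groups alone.

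**Figure D2:**
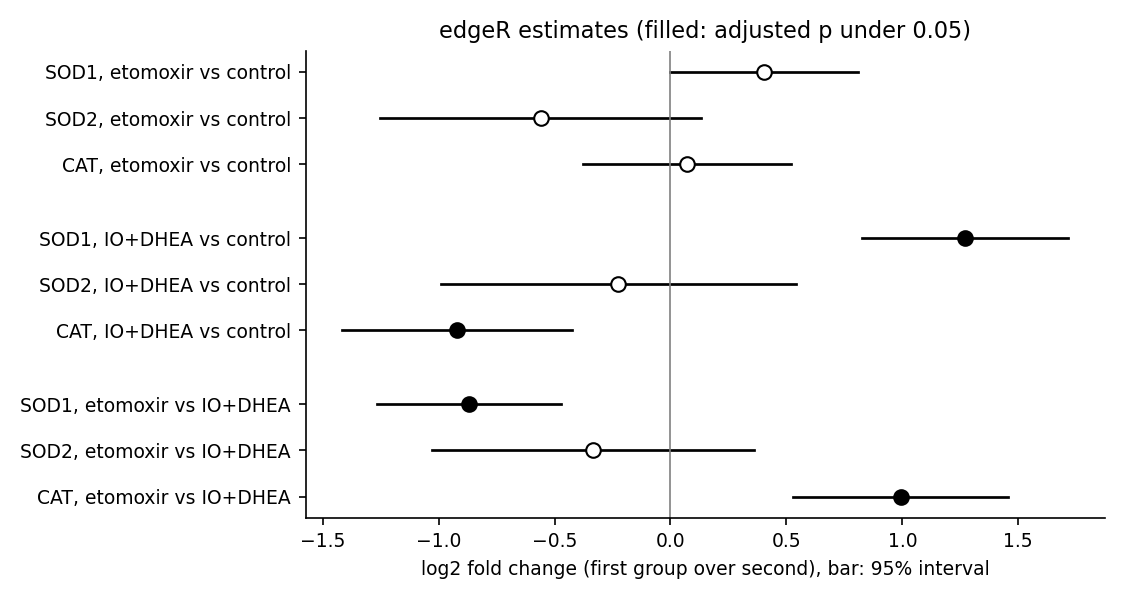
Log2 fold change of the first group over the second (horizontal axis) for each gene and comparison, with its 95% interval from the edgeR fit of 7 libraries; filled points have an adjusted p under 0.05. The filled points are SOD1 and CAT in the comparisons that include IO+DHEA, at 1.27 and -0.92 against control and -0.87 and 0.99 for etomoxir over IO+DHEA, and the intervals of SOD2 span 0 in all 3 comparisons.

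CAT was lowest in IO+DHEA, with control and etomoxir overlapping above it. It was at 287 and 242 CPM in control. The values were 301, 292 and 241 CPM in etomoxir libraries 1, 2 and 3. The IO+DHEA libraries held 151 and 128 CPM. Both IO+DHEA libraries lay below the 5 others, whereas control and etomoxir overlapped. How many genes have IO+DHEA below both other groups was not counted. Averages were 265 ± 31.5 CPM for control (SD, n = 2), 278 ± 32.3 CPM for etomoxir (SD, n = 3) and 139.7 ± 16.4 CPM for IO+DHEA (SD, n = 2).

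The fall of CAT in IO+DHEA was 1.89-fold against control. Its log2 fold change was -0.92 ± 0.21 (SE), with a 95% interval of -1.42 to -0.43 and an edgeR adjusted p of 0.0457. CAT was lower in 2 of 2 IO+DHEA libraries than in either control, which held for 28.4% of all genes tested. Ratios of 1 IO+DHEA to 1 control library ran from 0.446 to 0.625. Of the genes at 50 CPM or more, 16.5% had a lower log2 fold change than CAT and 11.1% were called lower. On unscaled totals CAT was at 127 and 139 CPM in IO+DHEA and at 287 and 238 CPM in control.

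This call lay close to the threshold. It was lost with median-of-ratios factors, at an edgeR adjusted p of 0.0545, and with upper quartile factors, at 0.0934. Over all genes tested the log2 fold change had a median of -0.01 with TMM and 0.19 with upper quartile factors. Relative to that median CAT was at -0.92 with TMM and -0.91 with upper quartile factors, and SOD1 at 1.28 and 1.29. With limma-voom the log2 fold changes were -0.92 for CAT and 1.27 for SOD1. The median was -0.18 there, and relative to it they were -0.75 and 1.44. Without IO+DHEA library 2, which leaves library 1 alone in that group, the log2 fold changes were -0.81 for CAT and 1.33 for SOD1. Relative to the median of -0.33 in that fit they were -0.48 and 1.66. The adjusted p of CAT was 0.166 and 0.138 when control library 1 or 2 was left out, and 0.0682, 0.0797 and 0.0971 when etomoxir library 1, 2 or 3 was. It was 0.194 in a fit of the 2 groups alone and 0.169 with the replicate block, and the log2 fold change stayed between -1.10 and -0.71 in all settings run.

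Between the treatments, CAT was 1.99-fold higher in etomoxir than in IO+DHEA. The log2 fold change was 0.99 ± 0.20 (SE), with a 95% interval of 0.53 to 1.46 and an edgeR adjusted p of 0.0238. CAT was higher in 3 of 3 etomoxir libraries than in either IO+DHEA library, which held for 26.1% of all genes tested. The adjusted p was 0.0505 with upper quartile factors, 0.147 with the replicate block, and 0.0666, 0.0753 and 0.0763 without etomoxir libraries 1, 2 and 3. Against control, etomoxir gave a log2 fold change of 0.07 ± 0.19 (SE) in CAT, with an edgeR adjusted p of 1. The 95% interval of that ratio ran from 0.769-fold to 1.43-fold, so a fall of the size seen in IO+DHEA lay outside it, and changes within those limits did not.

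**Figure D3:**
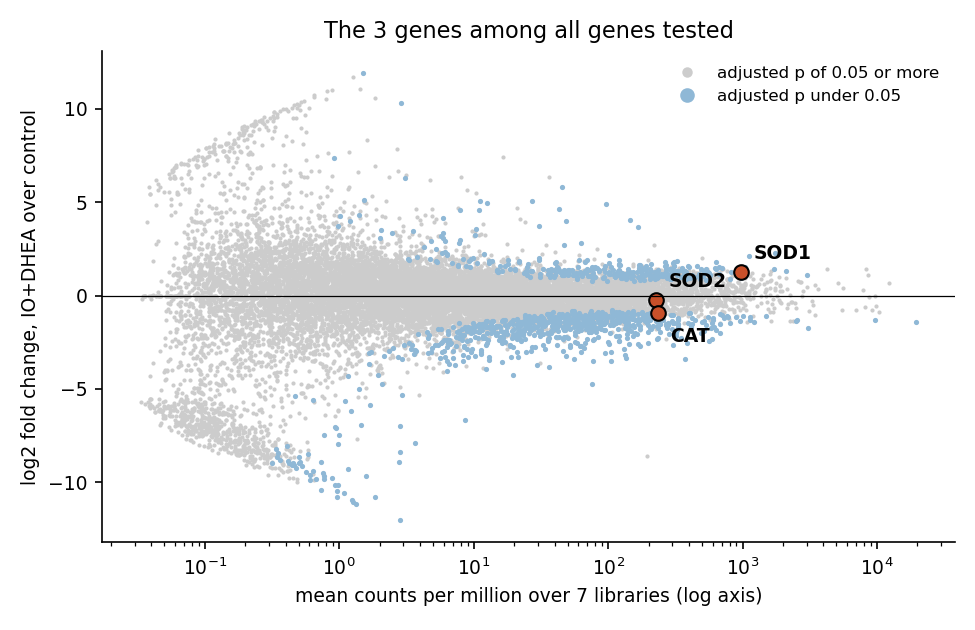
Mean CPM over the 7 libraries (horizontal log axis) against the log2 fold change of IO+DHEA over control (vertical axis) for the 15134 genes tested; blue points have an adjusted p under 0.05, grey points do not, and the 3 enzymes are the labelled orange points. SOD1 is above and CAT below 0, at 1.27 and -0.92, and SOD2 is at -0.23.

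SOD2, the mitochondrial enzyme, passed the test in none of the comparisons. It varied more than SOD1 or CAT between the control libraries and between etomoxir library 1 and etomoxir libraries 2 and 3. Between etomoxir libraries 2 and 3 it varied less than both, and between the IO+DHEA libraries less than CAT. Control libraries 1 and 2 held 327 and 225 CPM. SOD2 was at 123, 214 and 224 CPM in etomoxir libraries 1, 2 and 3. In IO+DHEA it was at 254 and 219 CPM. The lowest library was etomoxir library 1 and the highest control library 1, and the 5 others lay between 214 and 254 CPM. The control mean was 276 ± 71.6 CPM (SD, n = 2), the etomoxir mean 187 ± 55.6 CPM (SD, n = 3) and the IO+DHEA mean 236 ± 24.7 CPM (SD, n = 2).

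Etomoxir over control gave a log2 fold change of -0.56 ± 0.30 (SE) for SOD2, with an edgeR adjusted p of 1 and a 95% interval of 0.420-fold to 1.09-fold. On TMM-scaled values the groups did not overlap, which held in this direction for 12.2% of all genes tested, but the highest etomoxir and the lowest control library were close, at 224 and 225 CPM. On unscaled totals they overlapped, with etomoxir library 3 at 225 CPM and control library 2 at 221 CPM. The difference leaned on single libraries: the log2 fold change was -0.28 and -0.83 when control library 1 or 2 was left out, and -0.36 when etomoxir library 1 was. For IO+DHEA over control it was -0.23 ± 0.33 (SE), with an edgeR adjusted p of 0.730 and an interval of 0.503-fold to 1.45-fold. Without control library 1 that difference was 0.014. Etomoxir over IO+DHEA gave -0.34 ± 0.30 (SE), an edgeR adjusted p of 0.508 and an interval of 0.490-fold to 1.28-fold, and -0.08 without etomoxir library 1.

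The enzymes differed in how well replicates agreed. Of the 2994 genes that averaged 50 CPM or more, 90.9% had a larger quasi-likelihood dispersion in edgeR than SOD1, 75.5% a larger one than CAT and 20.7% a larger one than SOD2. That dispersion is pooled over the groups and moderated across genes, so it is not the raw difference between replicates. Between pairs of etomoxir libraries, 46.2% to 91.3% of genes at this level differed more than SOD1. Between the IO+DHEA libraries the log2 difference was 0.14 for SOD1, 0.21 for SOD2 and 0.24 for CAT, below the median of 0.51 for genes at this level. The control libraries differed by 0.03 in SOD1, 0.24 in CAT and 0.54 in SOD2, and only 11.4% of genes at this level differed more than SOD2. Etomoxir library 1 was below libraries 2 and 3 by 0.80 and 0.86 in SOD2, differences that 4.24% and 2.20% of genes exceeded, while libraries 2 and 3 differed by 0.07.

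Ratios of counts within a library do not depend on the scaling, since both genes share the library total. The ratio of 2 genes carries their transcript lengths, so its value in 1 library is not a comparison of levels, and only its difference between groups is read. CAT over SOD1 was 0.458 and 0.378 in the control libraries. It was 0.350, 0.376 and 0.275 in etomoxir libraries 1, 2 and 3. In IO+DHEA it was 0.0945 and 0.0878, lower than in each of the 5 other libraries. The log2 ratio averaged -3.46 ± 0.07 for IO+DHEA (SD, n = 2), -1.27 ± 0.20 for control (SD, n = 2) and -1.60 ± 0.24 for etomoxir (SD, n = 3). IO+DHEA was thus 4.56-fold below control, and etomoxir 3.63-fold above IO+DHEA. The ratios are made of the same counts as the levels above, so they combine the shifts of CAT and SOD1 and are not separate evidence.

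**Figure D4:**
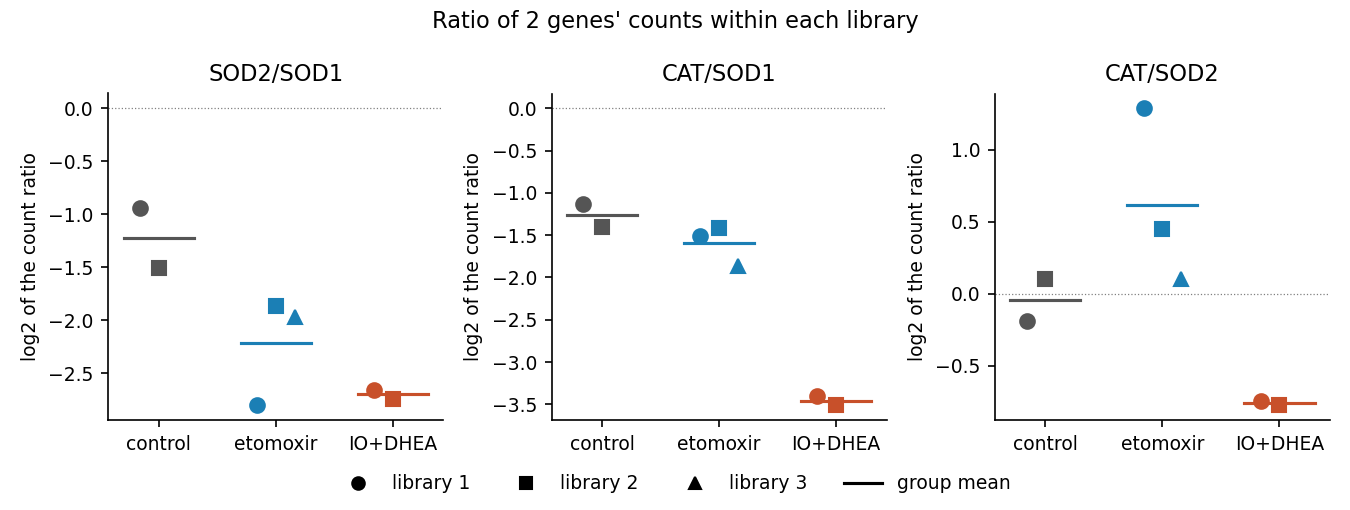
Log2 of the ratio of 2 genes' counts in each library (vertical axes) by group, with symbols for library numbers and a line at the group mean. CAT/SOD1 lies near -3.46 in both IO+DHEA libraries against -1.86 to -1.13 in the other 5, and SOD2/SOD1 is lowest in etomoxir library 1, at -2.80, just below the IO+DHEA libraries at -2.66 and -2.74.

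The 9 differences in ratio were tested by exact two-sided permutation over libraries, whose smallest possible p is 0.333 with 2 libraries a group and 0.2 with groups of 2 and 3. CAT over SOD1 and CAT over SOD2 both gave the smallest p their group sizes allow in each comparison. The values were 0.333 for IO+DHEA against control and 0.2 for those with etomoxir, so these exact tests could not pass a threshold of 0.05. Adjusted over the 9, the exact p-values were 0.36 to 0.6. SOD2 over SOD1 was 0.522 and 0.351 in control. The etomoxir libraries had 0.144, 0.276 and 0.255, and the IO+DHEA libraries 0.158 and 0.150. Every treated library was below both controls in this ratio, by 2.78-fold on average in IO+DHEA and 1.98-fold in etomoxir, with exact p-values of 0.333 and 0.2. How many other gene pairs show such a gap was not counted. In etomoxir against control neither gene passed the test by itself. The log2 difference there was -0.99, and -0.69 without etomoxir library 1. Etomoxir and IO+DHEA overlapped, and the exact p between them was 0.6.

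CAT over SOD2 set the peroxide-splitting enzyme against the mitochondrial dismutase. It was 0.878 and 1.07 in control. The etomoxir libraries had 2.44, 1.36 and 1.07, and the IO+DHEA libraries 0.596 and 0.586. The IO+DHEA libraries were again the lowest, on average 1.64-fold below control, while etomoxir library 3 and control library 2 met at 1.07. The high value of etomoxir library 1 went with its low SOD2 count, since its CAT level of 301 CPM was close to the 292 CPM of etomoxir library 2.

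Over the 7 libraries, which share their grouping and scaling, other genes followed SOD1 and CAT more closely than any followed SOD2. Among 7609 other genes that averaged 5 CPM or more, the highest Pearson correlations of log2 CPM were 0.994 and 0.992 with SOD1, 0.987 and 0.987 with CAT, and 0.955 and 0.944 with SOD2. Correlations over 0.9 were found for 255 genes with SOD1, 584 with CAT and 6 with SOD2, and correlations under -0.9 for 490, 177 and 4. These genes have no symbol in the sources used here and are not named, and the correlations are descriptions of 7 points in 3 groups.

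**Figure D5:**
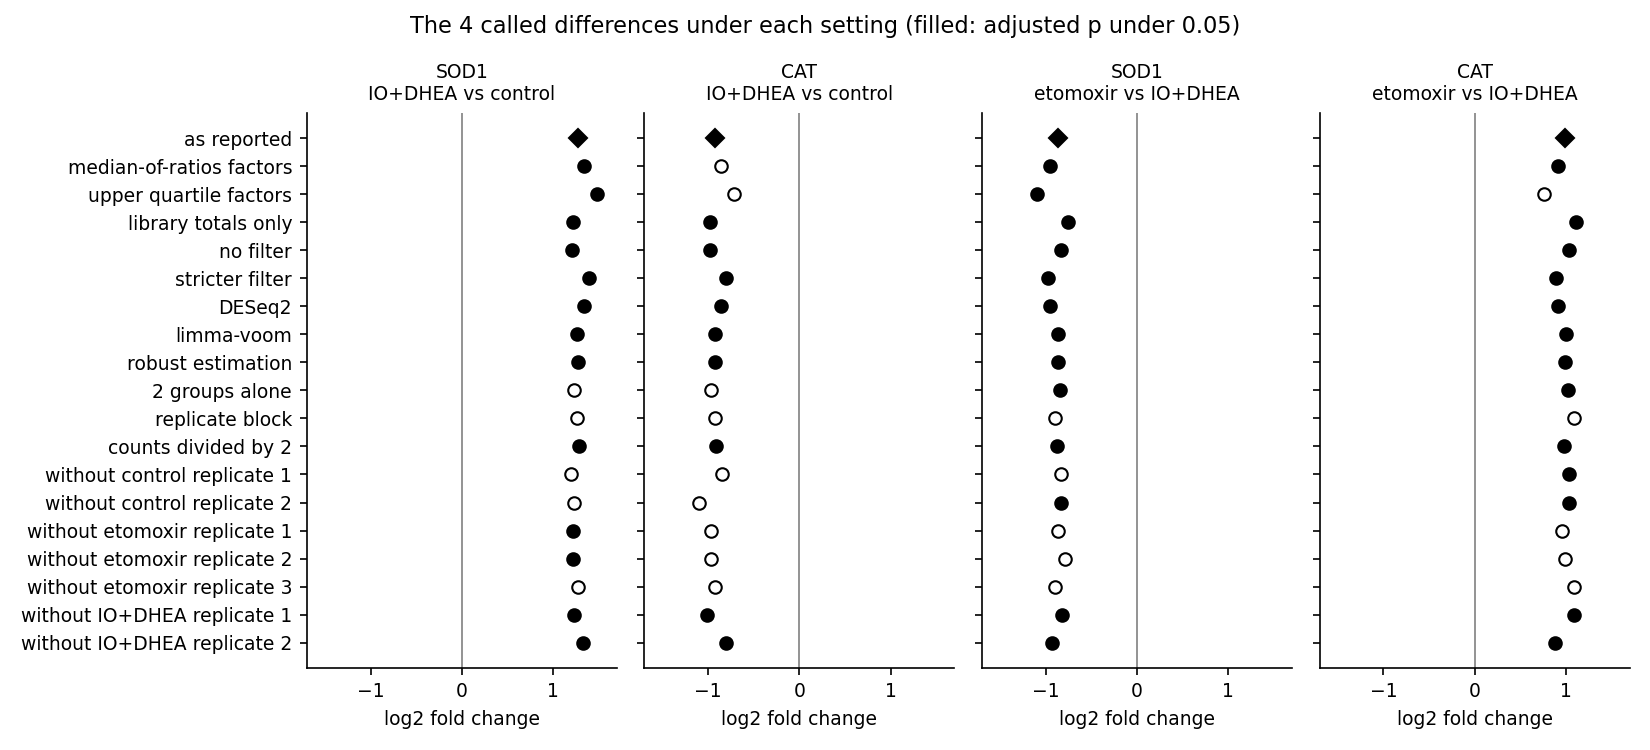
Log2 fold change (horizontal axes) of the 4 called differences as reported (diamond) and under each of 18 other settings (circles), filled where the adjusted p was under 0.05. Each difference keeps its sign in all settings, from 1.20 to 1.48 for SOD1 and from -1.10 to -0.71 for CAT in IO+DHEA over control, and the filled circles without an IO+DHEA library come from fits that leave 1 library in that group and take its spread from the other groups.

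Glutathione and thioredoxin enzymes, NADPH-producing enzymes and regulators of the antioxidant response, 39 genes listed by symbol, were not analysed here, because 0 of them could be paired with an ID of the table. Markers of trophectoderm, inner cell mass and other cell types were not checked for the same reason, so the part of cell composition in these differences was not tested.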

How the data were processed

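Gene-level read counts of 7 bovine blastocyst libraries were analysed. The authors deposited unnormalized counts by Ensembl gene ID. Cutadapt 1.18, STAR 2.7.9a, featureCounts 2.0.1 and the build ARS-UCD1.2 are listed in the submitters' processing notes. For strand and multi-mapping reads no setting is given in the sources used here, so counts of genes with near-identical copies or antisense partners are uncertain. Per the labels' protocols, libraries were made with a SMARTer ultra-low-input kit and Nextera XT.

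In R 4.3.3, genes were kept by filterByExpr (minimum count 10, minimum total 15), scaled by TMM and fitted over all 7 libraries by edgeR 4.0.16 (glmQLFit, 3 group terms, 4 residual degrees of freedom). The fit assumes that the groups share 1 spread per gene. P-values were two-sided, adjusted by Benjamini-Hochberg over all genes, and called under 0.05. The SE was computed as the log2 fold change over the root of the F statistic; 95% intervals are not adjusted for the number of genes. Log2 CPM used a prior count of 2. The method was tested on simulated data in which each gene had the same dispersion in all groups. The wider spread of the IO+DHEA pair was therefore not covered.

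Alternatives were other scalings, limma-voom (limma 3.58.1), DESeq2 1.42.0, no filter, a filter of 5 CPM in 2 libraries, robust estimation, fits of the 2 groups alone, a replicate block, each library left out, and counts divided by 2 and rounded, since most low counts are even. The 3 genes and the lists were chosen with earlier results of these data known. The rule for named genes took the 3 genes, listed pathway genes that a symbol pairs with an ID, and the 2 genes most correlated with each. The reference table held 0 of the table's IDs.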

Additional observations from a re-analysis of the deposited data

How the results depend on the processing

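The differences of SOD1 and CAT that involve IO+DHEA kept their sign in every setting run, and their calls did not. For IO+DHEA over control, the log2 fold change of SOD1 was 1.23 in the 2 groups alone and 1.27 with the replicate block, both no longer called, and 1.20 to 1.33 with 1 library left out. That of CAT lost its call with median-of-ratios factors (-0.86), upper quartile factors (-0.71), the 2 groups alone (-0.97) and the replicate block (-0.92), and ran from -1.10 to -0.81 with 1 library left out. For etomoxir over IO+DHEA, calls were lost with the replicate block in SOD1 (-0.90) and CAT (1.09) and with upper quartile factors in CAT (0.76), and leaving out 1 library gave -0.93 to -0.79 and 0.88 to 1.09.

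Differences that were not called changed sign in a few fits. CAT in etomoxir over control was -0.0692 without control library 2 and -0.01 without etomoxir library 1, in a range of -0.0692 to 0.18, and SOD2 in IO+DHEA over control was 0.0143 without control library 1, in a range of -0.53 to 0.0143. The differences in ratio kept their sign with each library left out.

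For etomoxir against control edgeR called 1 gene, DESeq2 59, limma-voom 0 (572 at an unadjusted p under 0.05), the replicate block 0 (217), and fits without 1 library 0 to 1. For IO+DHEA against control the 1050 genes became 1606 with the stricter filter, 2936 by DESeq2, 0 in the 2 groups alone (2530 at an unadjusted p under 0.05), 0 with the block (2603), 72 and 47 when control library 1 or 2 was left out, 332, 271 and 110 when etomoxir library 1, 2 or 3 was, and 2191 and 3707 without IO+DHEA libraries 1 and 2. For etomoxir against IO+DHEA the 1769 became 3507 by DESeq2, 932 in the 2 groups alone, 0 with the block (2633), 35 to 976 without a control or etomoxir library and 2321 and 4530 without IO+DHEA libraries 1 and 2. Fits without 1 IO+DHEA library, or without 1 control library, leave 1 library in that group, which is assumed to vary like the others. Fewer libraries or fewer residual degrees of freedom entered the fits of 2 groups, of 6 libraries and with the block. Whether libraries with the same replicate number share an origin is not given in the labels. Deviations of same-numbered libraries from their group means correlated at -0.24 to 0.14 across genes, and those of differently numbered libraries at -0.25 to 0.25. In a group of 2 libraries the deviations mirror each other, so few of these values are independent. They cannot decide whether a batch was shared.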
